A study of Mus musculus with 65 samples.

Results

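Visceral endoderm uptake and secreted proteins were followed here as 10 genes out of the 24465 counted: the uptake genes Cubn, Amn, Lrp2 and Dab2, and the genes for secreted proteins Afp, Ttr, Apoa1, Apob, Rbp4 and Trf. They were taken by symbol from the gene counts of 17 RNA libraries, and all 10 passed the low-count filter of both fits. Afp and Ttr, and Apoa1 in 2019, passed through their later libraries since they were near 0 at day 0. A gene filtered in this way could only be called higher than at day 0. In 2019 Amn passed only with its day 0 libraries, where it was highest. The study grew mouse embryonic stem cells with leukaemia inhibitory factor and turned them into embryoid bodies, rotating aggregates of differentiating cells, by removing that factor and adding 10 µM all-trans retinoic acid. The 2019 libraries came from the wild type at day 0, day 3 and day 6, with 2 per day. The 2020 libraries came from day 0 and day 6 of the wild type and of 2 lines edited with CRISPR/Cas9, named H3.3A knockout and H3.3K27A. Each of those groups had 2 libraries, apart from wild type at day 0 with 1. H3.3 is a histone variant, and the K27A line is named for a change at the lysine that carries the silencing mark H3K27me3. The labels do not say which H3.3 gene carries that change or whether each line is 1 clone. Chromatin immunoprecipitation libraries covered H3, H3.3, H3K27me3 and H3.3K27me3, in duplicate, from the wild type on day 0 and on day 6. The names H3 and H3K27me3 follow the sample labels; the deposited peak and region files call these targets H3.1 and H3.1K27me3, and the sources used here do not settle which is meant.

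The visceral endoderm is the outer epithelium that surrounds the early embryo and later lines the yolk sac, and it feeds the embryo before the placenta works. It takes up maternal proteins through a receptor pair of cubilin (Cubn) and its membrane partner amnionless (Amn), together with the large receptor megalin (Lrp2), whose cytoplasmic tail binds the clathrin adaptor Dab2. It also secretes the plasma proteins that the liver will make later. Parietal endoderm, its sister tissue, lays down a thick basement membrane and also makes Dab2.

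The RNA libraries held 6965704 to 12711698 gene counts in 2019 and 14270549 to 22032871 in 2020. Levels are given in CPM, gene counts scaled to a common library size with TMM factors. H3f3a, the H3.3A gene, stood at 114 to 129 CPM in the wild-type libraries of 2020 and at 20.9 to 23.1 CPM in the knockout. It was as low in the K27A libraries, at 20.4 to 24.2 CPM, so both edited lines carried little H3f3a RNA. The day 6 knockout duplicates stood apart: the chi-square per degree of freedom of their counts was 44.2, against 2.22 to 7.72 in the other 7 pairs of duplicates. Counts of members called that rest on them are therefore also given with libraries left out. Calls for markers and other gene lists are given only with both of these duplicates in the fit.

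The tissue named by the label was only partly matched by its markers. Of 9 markers of extraembryonic visceral endoderm, 5 were called higher and 4 lower at day 6 against day 0 in 2019. Among all genes tested 41.4% were higher and 36.6% lower, so this split does not set the list apart. The summed level of the 9 markers was 344 to 360 CPM, against 693 to 743 CPM at day 0. Tdh, which stem cells also express, made up most of the day 0 sum, at 651 to 696 CPM. S100g went from 0 to between 135 and 145 CPM and Ihh from between 0.161 and 0.562 to between 53.6 and 56.9 CPM, while Spink1 fell to between 0.812 and 0.823 CPM. The 7 markers of anterior visceral endoderm summed to 237 to 251 CPM at day 0 and 137 to 148 CPM at day 6 of 2019. Most of that day 6 sum came from Lhx1, which had 0 counts at day 0 and is also on the kidney list below. Among the 7 markers, 3 were under 1 CPM at day 6 of 2019, with Cer1 at 0 on both days. In the wild type of 2020 the sum went from 228 CPM at day 0 to between 21.2 and 29.1 CPM at day 6. Parietal endoderm markers summed to 708 to 718 CPM at day 0, much like the visceral list. They summed to far more later, 5490 to 5580 CPM at day 3 and 5950 to 6420 CPM at day 6. At day 6, 9 of the 10 tested parietal markers were higher (41.4% of all genes tested), and Srgn was at 0 throughout. In bulk RNA, fewer or more cells of a type and less or more RNA per cell cannot be told apart.

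Promoters of 8 members were found in the RefSeq table (GRCm38.p6), each as 300 bases from 250 before to 50 after the start. The 6 below are shown because they range from CpG-rich to CpG-poor, and the chromatin at these starts is described after the RNA. Capitals mark every CG dinucleotide. Rbp4 (its downstream start), Amn and Dab2 (its downstream start) hold 40, 15 and 19 CG dinucleotides, against a median of 7 over all 32851 promoters. Cubn, Apoa1 and Afp hold 5, 4 and 3.
Rbp4, chr19:38124762-38125061, minus strand: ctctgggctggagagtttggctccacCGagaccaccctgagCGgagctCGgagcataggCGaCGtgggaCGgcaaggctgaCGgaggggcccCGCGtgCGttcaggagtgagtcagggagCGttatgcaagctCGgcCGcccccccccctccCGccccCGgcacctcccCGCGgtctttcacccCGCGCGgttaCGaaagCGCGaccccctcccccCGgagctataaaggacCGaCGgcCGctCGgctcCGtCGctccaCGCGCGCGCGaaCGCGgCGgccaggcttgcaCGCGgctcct
Amn, chr12:111270846-111271145, plus strand: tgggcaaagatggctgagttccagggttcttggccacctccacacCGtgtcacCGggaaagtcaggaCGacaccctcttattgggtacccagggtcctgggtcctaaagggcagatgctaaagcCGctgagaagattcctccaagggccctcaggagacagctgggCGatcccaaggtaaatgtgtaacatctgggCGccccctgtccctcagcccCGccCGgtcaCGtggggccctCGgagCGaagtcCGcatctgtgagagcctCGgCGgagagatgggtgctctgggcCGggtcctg
Dab2, chr15:6386498-6386797, plus strand: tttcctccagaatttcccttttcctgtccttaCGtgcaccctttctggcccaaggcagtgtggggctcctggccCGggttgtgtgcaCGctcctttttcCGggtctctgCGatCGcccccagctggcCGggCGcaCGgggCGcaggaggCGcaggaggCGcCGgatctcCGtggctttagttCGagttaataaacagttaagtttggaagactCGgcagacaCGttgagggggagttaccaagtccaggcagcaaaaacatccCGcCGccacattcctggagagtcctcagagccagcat
Cubn, chr2:13491827-13492126, minus strand: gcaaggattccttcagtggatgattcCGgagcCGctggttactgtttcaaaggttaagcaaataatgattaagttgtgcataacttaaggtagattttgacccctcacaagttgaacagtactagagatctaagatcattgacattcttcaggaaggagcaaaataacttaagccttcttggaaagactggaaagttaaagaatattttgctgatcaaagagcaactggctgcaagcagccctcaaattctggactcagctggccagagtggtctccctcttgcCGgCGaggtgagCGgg
Apoa1, chr9:46228380-46228679, plus strand: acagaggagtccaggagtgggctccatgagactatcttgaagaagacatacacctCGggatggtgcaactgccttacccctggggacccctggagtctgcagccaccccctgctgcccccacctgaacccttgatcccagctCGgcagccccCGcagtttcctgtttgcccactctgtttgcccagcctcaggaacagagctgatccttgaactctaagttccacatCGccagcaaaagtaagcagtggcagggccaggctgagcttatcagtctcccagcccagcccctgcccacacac
Afp, chr5:90490464-90490763, plus strand: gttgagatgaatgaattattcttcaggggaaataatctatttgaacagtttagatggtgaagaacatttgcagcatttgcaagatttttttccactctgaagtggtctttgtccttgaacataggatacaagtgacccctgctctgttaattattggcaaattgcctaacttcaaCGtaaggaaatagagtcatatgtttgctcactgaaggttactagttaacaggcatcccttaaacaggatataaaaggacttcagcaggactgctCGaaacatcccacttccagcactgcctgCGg
Lrp2 and Apob, not printed, hold 20 and 9. Searched on both strands for 3 motifs of endoderm factors, these windows gave few matches. The GATA motif AGATAA, found in 11.2% of all promoters, matched only at the upstream start of Dab2, at position 15 counted from that start. The HNF1 motif GTTAAT (7.1% of promoters) matched at position -65 from the downstream start of Dab2 and at position -105 of Afp. The forkhead motif TGTTTAC (3.65%) matched at position -241 from the upstream start of Rbp4. Such matches describe letters in a window and no binding.

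In the wild-type time course of 2019 the receptor Cubn and the adaptor Dab2 rose by day 3, with no call after it. Cubn stood at 1.61 and 1.59 CPM at day 0, 203 and 223 CPM at day 3, and 243 and 187 CPM at day 6. The day 3 and day 6 ranges of Cubn overlapped, and both lay far above day 0. Here and below, the share of all genes whose groups do not overlap was not counted. The rise to day 3 was 133-fold (log2 7.05 ± 0.34 SE, adjusted p = 1.19e-11), and the later difference was 0.02 ± 0.10 on the log2 scale (adjusted p = 0.908, edgeR quasi-likelihood test, Benjamini-Hochberg over 13593 genes, as for all values of 2019). Dab2 went from 2.41 and 4.03 CPM to 196 and 221 CPM at day 3, then 221 and 189 CPM at day 6. Its day 3 rise was 64.7-fold (log2 5.93 ± 0.23, adjusted p = 1.01e-11), again with overlapping libraries at day 3 and day 6 (adjusted p = 0.846). The labels do not say that duplicate RNA libraries came from separate cultures, so all p-values measure the spread between these samples, which may be technical.

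The other receptor genes went the opposite way. Amn, the partner without which cubilin does not reach the cell surface, was scarce at every time: 2.09 and 1.41 CPM at day 0, 0.728 and 0.901 CPM at day 3, and 0.295 and 0.457 CPM at day 6. The day 6 values of Amn rest on 4 and 5 counts. Its groups did not overlap, and at day 6 it had fallen 4.64-fold below day 0 (log2 -2.15 ± 0.56, adjusted p = 0.00201). The step to day 3 just missed the threshold (adjusted p = 0.0511), and passed it with size factors of the RLE method in place of TMM (adjusted p = 0.0462). Lrp2 held at 168 and 156 CPM at day 0 and 172 and 177 CPM at day 3, then dropped to 50.2 and 49.2 CPM at day 6. That fall of Lrp2 from day 3 was 3.51-fold (log2 -1.81 ± 0.07, adjusted p = 1.13e-09). At day 6 the libraries thus held Cubn at 19 CPM per kb of exon, Lrp2 at 3.22 and Amn at 0.221, a per-length scale on which genes can be compared.

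Of the 6 secreted protein genes, 5 were higher at day 6 than at day 3, and Afp, Ttr and Apoa1 began near 0. Rbp4, the retinol carrier of plasma, went from 1.45 and 0.843 CPM to 15.6 and 16.9 CPM at day 3 and to 177 and 154 CPM at day 6. Every step separated the groups, and the whole rise was 145-fold (log2 7.26 ± 0.33, adjusted p = 2.6e-12). Apoa1, the main protein of high-density lipoprotein, barely moved by day 3, with 0.161 and 0.469 CPM at day 0 and 0.728 and 0.750 CPM at day 3 (adjusted p = 0.137). It then climbed to 22.2 and 18.7 CPM at day 6, 27.7-fold above day 3 (log2 4.77 ± 0.34, adjusted p = 9.72e-09). Ttr, the thyroid hormone and retinol-binding protein carrier transthyretin, had 1 count in its day 0 libraries together, 2.35 and 4.05 CPM at day 3, and 16.3 and 16.7 CPM at day 6. Day 6 was 279-fold above day 0 for Ttr, with a 95% counting interval of 49.8 to 11000, and 5.16-fold above day 3 (adjusted p = 2.26e-06).

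Afp, the albumin-like protein of fetal plasma and the classic marker of this tissue, stayed low. It had 0 counts at day 0, 2.83 and 2.03 CPM at day 3, and 5.76 and 6.22 CPM at day 6. Taking the day 0 group at a floor of 3 counts, day 6 was at least 33.6-fold higher (adjusted p = 6.67e-07), and day 6 exceeded day 3 2.46-fold (adjusted p = 0.00142). Apob, the core protein of low-density lipoprotein and of yolk sac lipoproteins, moved least among the genes that rose: 2.25 and 2.16 CPM, then 6.15 and 4.88 CPM, then 14.4 and 11 CPM. Its groups did not overlap, and the whole rise was 5.76-fold (log2 2.53 ± 0.29, adjusted p = 1.15e-06).

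Trf, the iron carrier transferrin, rose and then fell. It stood at 14.3 and 12.8 CPM at day 0, 28.8 and 25.5 CPM at day 3, and 3.10 and 3.11 CPM at day 6. The rise to day 3 was 2-fold (log2 1.01 ± 0.14, adjusted p = 2.53e-05), and the fall from day 3 to day 6 was 8.75-fold (log2 -3.12 ± 0.18, adjusted p = 7.98e-09). No other member changed direction between the steps with a call in each.

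**Figure D1:**
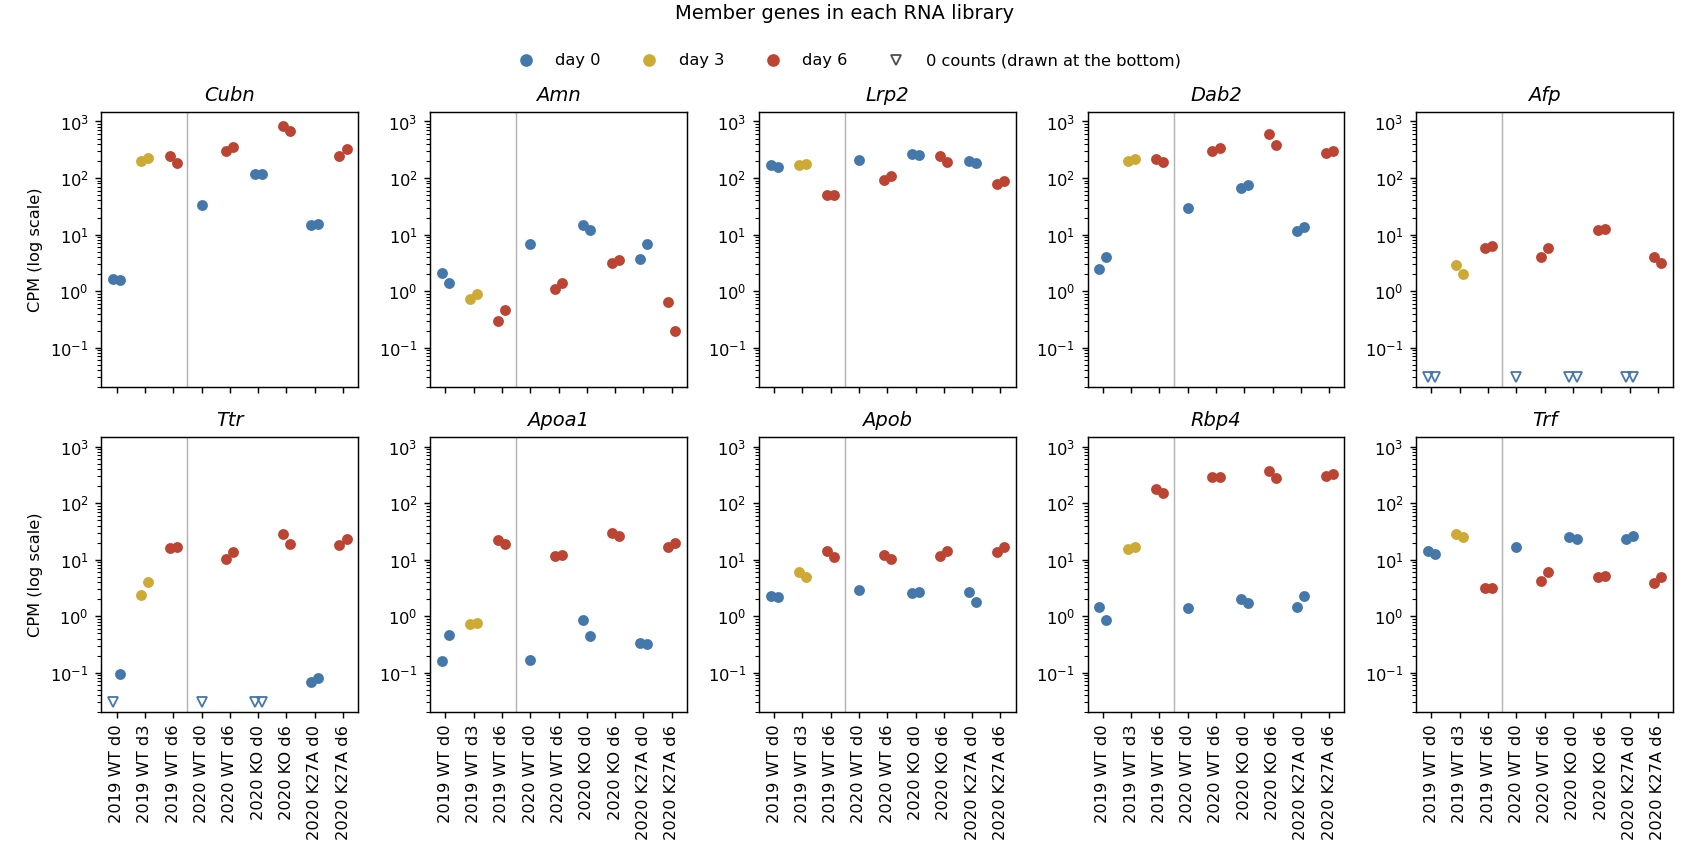
Each panel plots 1 gene, with a point per RNA library in CPM on a log scale, grouped by year, line (WT, wild type; KO, H3.3A knockout; K27A, H3.3K27A) and day (d). Open triangles at the bottom mark libraries with 0 counts; Cubn and Dab2 sit at 187 to 243 CPM at day 6 of 2019, while Amn stays under 15 CPM everywhere.

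Counted over the 10 members, 7 were called higher and 0 lower at day 3 against day 0, where 37.6% of all genes tested were higher and 33.8% lower. The edgeR test at an unadjusted p under 0.05 gave 1 lower member, Amn, and DESeq2 gave 0. From day 3 to day 6, 5 were higher and 2 lower (29.4% and 27.9% of all genes). Between day 0 and day 6, 7 were higher and 3 lower (41.4% and 36.6%). Afp, Ttr and Apoa1 are among these 7 and, being near 0 at day 0, could only be called higher. The members' median log2 change over those 6 days was 5.86, or 5.44 with Afp at its bound, against 0.09 over all genes tested. In the authors' deposited table of the same comparison the directions were the same for all 10, with log2 6.99 for Rbp4, 6.88 for Cubn and -1.99 for Trf. The order of levels per kb changed as well: Lrp2 (10.5 CPM per kb) and Trf (5.82) led at day 0, Dab2 (45) and Cubn (18.8) at day 3, and Rbp4 (128), Dab2 (44.2) and Apoa1 (20.7) at day 6. Hepatocyte markers summed to only 29.1 to 30.9 CPM at day 6, with 10 of 11 genes under 1 CPM in that group and Alb at 0 to 0.222 CPM. A list of 11 kidney markers, from an organ whose proximal tubule also uses cubilin and megalin, summed to 303 to 314 CPM. Nearly all of it came from the developmental factors Lhx1 (120 to 132 CPM), Wt1 (96.4 to 108 CPM), Pax2 (41 to 49 CPM) and Pax8 (26.6 to 30.3 CPM), which are not particular to that tubule, while the tubule genes Slc22a6 and Gpx3 were at 0. The parts of these cell types in the members' levels were not tested.

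**Figure D2:**
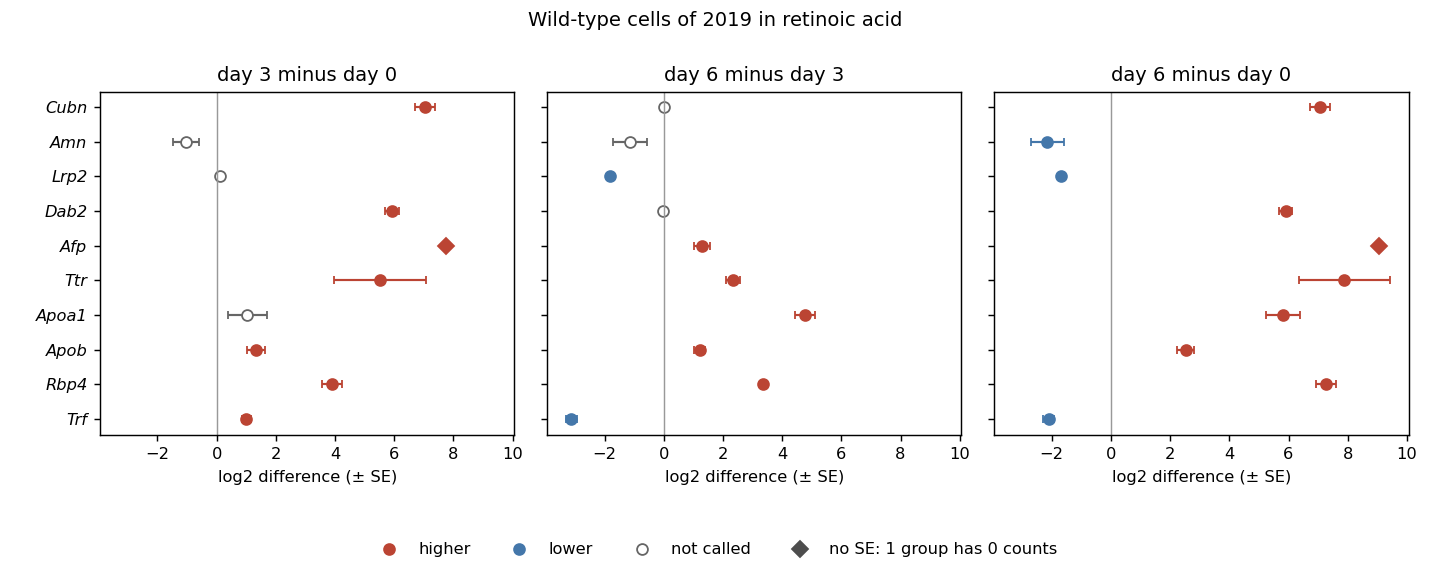
Log2 differences between time points for the 10 genes in wild-type cells of 2019, with the SE as bars; filled red or blue points passed an adjusted p of 0.05, and the diamond marks Afp, whose day 0 group has 0 counts, so that its fitted value is no bound. Cubn and Dab2 changed in the step to day 3 and lie at 0.02 and -0.02 in the next, where Apoa1 reached 4.77.

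The same directions were measured in the wild-type cells of 2020, where 7 members were higher and 3 lower at day 6 (36.0% and 34.8% of 14760 genes tested), with 1 day 0 library, whose spread is taken from the remaining groups. Cubn began there at 33.8 CPM and Dab2 at 28.9 CPM, above their 2019 levels, although the years were scaled and fitted apart. Cubn reached 304 and 358 CPM at day 6, a 9.8-fold rise (log2 3.29 ± 0.18, adjusted p = 6.29e-07). Rbp4 went from 1.37 CPM to 291 and 294 CPM, 214-fold (log2 7.73 ± 0.35, adjusted p = 3.3e-08). Lrp2 fell from 211 CPM to 90.6 and 108 CPM, Amn from 6.85 to 1.08 and 1.40 CPM, and Trf from 16.9 to 4.16 and 6.15 CPM.

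The K27A line also gave 7 higher and 3 lower (39.5% and 37.2% of all genes), and the knockout gave 7 higher and 2 lower (40.8% and 36.4%). Rbp4 showed the same course in each line: 2.00 and 1.71 CPM to 372 and 276 CPM in the knockout, and 1.48 and 2.28 CPM to 303 and 330 CPM in the K27A line. Lrp2 was the member not called in the knockout, with 263 and 259 CPM at day 0 and 248 and 195 CPM at day 6 (log2 -0.24 ± 0.12, adjusted p = 0.106). Without the day 6 knockout library of replicate 1, the difference for Lrp2 was -0.44 (adjusted p = 0.000716). Afp had 0 counts in all 5 day 0 libraries of 2020 and 3.19 to 12.3 CPM in all 6 day 6 libraries.

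At day 0, before any retinoic acid, Cubn and Dab2 already differed between the lines. Cubn stood at 116 and 120 CPM in the knockout, 33.8 CPM in the single wild-type library, and 14.6 and 15.5 CPM in the K27A line, with no overlap between groups. Dab2 followed the same order, with 66.7 and 74.0 CPM, 28.9 CPM, and 11.7 and 13.7 CPM. Between the edited lines, which have 2 libraries each, Cubn was 7.83-fold lower in K27A (log2 -2.97 ± 0.16, adjusted p = 4.58e-05) and Dab2 5.54-fold lower (log2 -2.47 ± 0.20, adjusted p = 0.000523). These 2 were the members called in that comparison, against 0.806% of genes called lower and 0.461% higher. DESeq2 called 3 lower, with Amn added, and 4 were lower at an unadjusted p under 0.05, with Amn and Lrp2 added. None was higher, also at an unadjusted p under 0.05 and by DESeq2.

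Against the wild-type library at day 0, 1 member was higher in the knockout (0.0271% of all genes) and 0 were lower (0.0949%), also 0 at an unadjusted p under 0.05 and by DESeq2. That member was Cubn, 3.49-fold higher (log2 1.80 ± 0.18, adjusted p = 0.0141). DESeq2 called 2 higher, with Dab2 added, and 5 were higher at an unadjusted p under 0.05. Its call was lost without either knockout day 0 library (adjusted p = 0.149 without replicate 1 and 0.113 without replicate 2) or either K27A day 0 library (0.0591 and 0.0592), with a log2 difference of 1.78 to 1.83 each time. In K27A, 2 members were lower (1.17%) and 0 higher (0.569%). At an unadjusted p under 0.05, Trf was higher there, and DESeq2 called 0 higher. Cubn was 2.24-fold lower (log2 -1.17 ± 0.20, adjusted p = 0.0203) and Dab2 2.27-fold lower (log2 -1.19 ± 0.25, adjusted p = 0.0442). Neither call held without either K27A day 0 library, with adjusted p of 0.156 and 0.124 for Cubn and 0.261 and 0.17 for Dab2, nor without either knockout day 0 library. The Dab2 call was also lost without any single day 6 library of the wild type or K27A. Among the other members, Amn read 14.9 and 12.2 CPM in the knockout, 6.85 CPM in wild type and 3.69 and 6.67 CPM in K27A at day 0. It was not called in the fit of all 2020 groups, where K27A against the knockout gave -1.40 ± 0.32 (adjusted p = 0.0837), but was called lower in K27A than in the knockout by DESeq2 (-1.39, adjusted p = 0.0112), with no filter (0.0133), with all 17 libraries (0.0191) and with only the groups compared (0.00136). Without either day 6 knockout library, 4 members were lower in K27A than in the knockout at day 0, Amn (-1.41, adjusted p = 0.0024 without replicate 1) and Lrp2 (-0.42, adjusted p = 0.00435) beside Cubn and Dab2. Dab2 was then also higher in the knockout than in wild type (1.28, adjusted p = 2.28e-05 without replicate 1).

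At day 6, in the fit of all 2020 groups, 7 members were called higher in the knockout than in wild type, namely all 4 uptake genes and Afp, Ttr and Apoa1, while Apob, Rbp4 and Trf were not called. Among all genes 6.98% were called higher, and 4.42% lower, where no member was called (also 0 at an unadjusted p under 0.05 and by DESeq2). Cubn read 842 and 670 CPM in the knockout against 304 and 358 CPM (log2 1.19 ± 0.14, adjusted p = 0.00179). Lrp2 read 248 and 195 CPM against 90.6 and 108 CPM (log2 1.16 ± 0.13, adjusted p = 0.00144). Both receptors thus lay higher in each knockout library than in each wild-type library. Apoa1 read 29.2 and 25.7 CPM against 11.5 and 12.3 CPM (log2 1.21 ± 0.16, adjusted p = 0.00327), and Afp 12.1 and 12.3 CPM against 4.08 and 5.67 CPM (log2 1.32 ± 0.23, adjusted p = 0.013). Amn (3.09 and 3.55 CPM against 1.08 and 1.40 CPM), Ttr (28.6 and 19 CPM against 10.2 and 13.4 CPM) and Dab2 (598 and 390 CPM against 303 and 336 CPM) had adjusted p of 0.0405, 0.0261 and 0.0434. The libraries of these 3 genes did not overlap either, though the share of all genes without overlap was not counted. Rbp4, at 372 and 276 CPM against 291 and 294 CPM, did overlap (log2 0.14 ± 0.13, adjusted p = 0.51).

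How many of these 7 were called turned on which libraries set the spread. Fitted with the 4 day 6 libraries of the knockout and wild type alone, 0 of 10 members were called. Over all genes that fit called 0 higher and 3 lower, so its count does not set the members apart. The log2 differences stayed at 1.16 for Cubn, 1.13 for Lrp2 and 1.18 for Apoa1 (adjusted p = 0.14, 0.14 and 0.12). Without the wild-type day 6 library of replicate 1 only Cubn and Lrp2 were called, and without that of replicate 2 Cubn, Lrp2 and Apoa1. Leaving out the knockout library of replicate 1 gave 6 and of replicate 2 gave 8, the latter with Rbp4 added (0.34, adjusted p = 0.00266). Dab2 was called in only 6 of 18 alternatives. It was at 0.26 without the knockout library of replicate 1 (adjusted p = 0.0613), and its call was also lost with RLE scaling (0.0541) and without any single K27A library or knockout day 0 library (0.0723 to 0.0767). The Amn call was lost without either knockout day 0 library (0.072 and 0.0714) and the Ttr call without either K27A day 0 library (0.0544 each). Parietal endoderm markers moved the same way: in the fit of all 2020 groups, 10 of 10 tested were higher in the knockout (6.98% of all genes). They summed to 29900 to 47300 CPM against 9730 to 12100 CPM in wild type, with Srgn at 0. Of 9 extraembryonic visceral endoderm markers, 6 were higher and their sum was 618 to 805 CPM against 419 to 421 CPM, with none at 0. The part of either tissue in the members' difference was not tested.

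In the K27A line at day 6 no member differed from wild type by the test (1.13% of genes were higher and 0.908% lower). At an unadjusted p under 0.05, Ttr and Apoa1 were higher and Amn lower, and DESeq2 called 0 in either direction. Apoa1 read 16.6 and 19.9 CPM against 11.5 and 12.3 CPM (log2 0.62 ± 0.16, adjusted p = 0.0932), and Ttr 18.3 and 22.7 CPM against 10.2 and 13.4 CPM (log2 0.79 ± 0.22, adjusted p = 0.123). Each of the 2 genes was higher in both K27A libraries than in both wild-type libraries, but the share of all genes separated in this way was not counted. Both were called without the knockout day 6 library of replicate 1 (adjusted p = 0.00438 and 0.00228) or of replicate 2 (0.004 and 0.00218). Cubn, at 249 and 320 CPM, overlapped the wild type (log2 -0.22 ± 0.14, adjusted p = 0.524). The parietal endoderm markers, 0 of 10 called, summed to 7360 to 9310 CPM in K27A.

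Set against each other at day 6, the edited lines differed at 6 members, each lower in K27A, where 9.64% of all genes were lower and 9.03% higher. None was higher, also at an unadjusted p under 0.05 and by DESeq2. Amn differed most in log2, with 0.629 and 0.196 CPM in K27A and 3.09 and 3.55 CPM in the knockout (log2 -2.93 ± 0.49, adjusted p = 0.00229). Its K27A values rest on 16 and 4 counts, and its log2 difference ran from -4.04 to -2.39 over the alternatives. Afp was 3.37-fold lower (4.05 and 3.19 CPM, log2 -1.74 ± 0.23, adjusted p = 0.00256), Cubn 2.65-fold (log2 -1.41 ± 0.14, adjusted p = 0.000316) and Lrp2 2.62-fold (79.5 and 89.5 CPM, log2 -1.39 ± 0.13, adjusted p = 0.000204). Dab2 (272 and 301 CPM, log2 -0.78 ± 0.17, adjusted p = 0.0122) and Apoa1 (log2 -0.59 ± 0.16, adjusted p = 0.0328) differed less, and both calls were lost without either K27A day 6 library (adjusted p = 0.117 and 0.0579 for Dab2, 0.26 and 0.0868 for Apoa1). The Apoa1 call was also lost without either day 0 library of K27A (adjusted p = 0.0561 each) or either day 6 library of wild type (0.0609 and 0.062). Without the knockout library of replicate 2, 8 members were lower, with Ttr (-0.48, adjusted p = 0.0298) and Rbp4 (-0.23, adjusted p = 0.0279) added. Without replicate 1, Rbp4 was called higher instead (0.22, adjusted p = 0.0498), so that its direction rested on which knockout library was kept. With only these 4 libraries in the fit 2 members were called, Lrp2 and Afp (adjusted p = 0.0462 and 0.0489). Over all genes that fit called 134 higher and 74 lower. Parietal endoderm markers were again on the same side, with 9 of 10 lower in K27A.

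**Figure D3:**
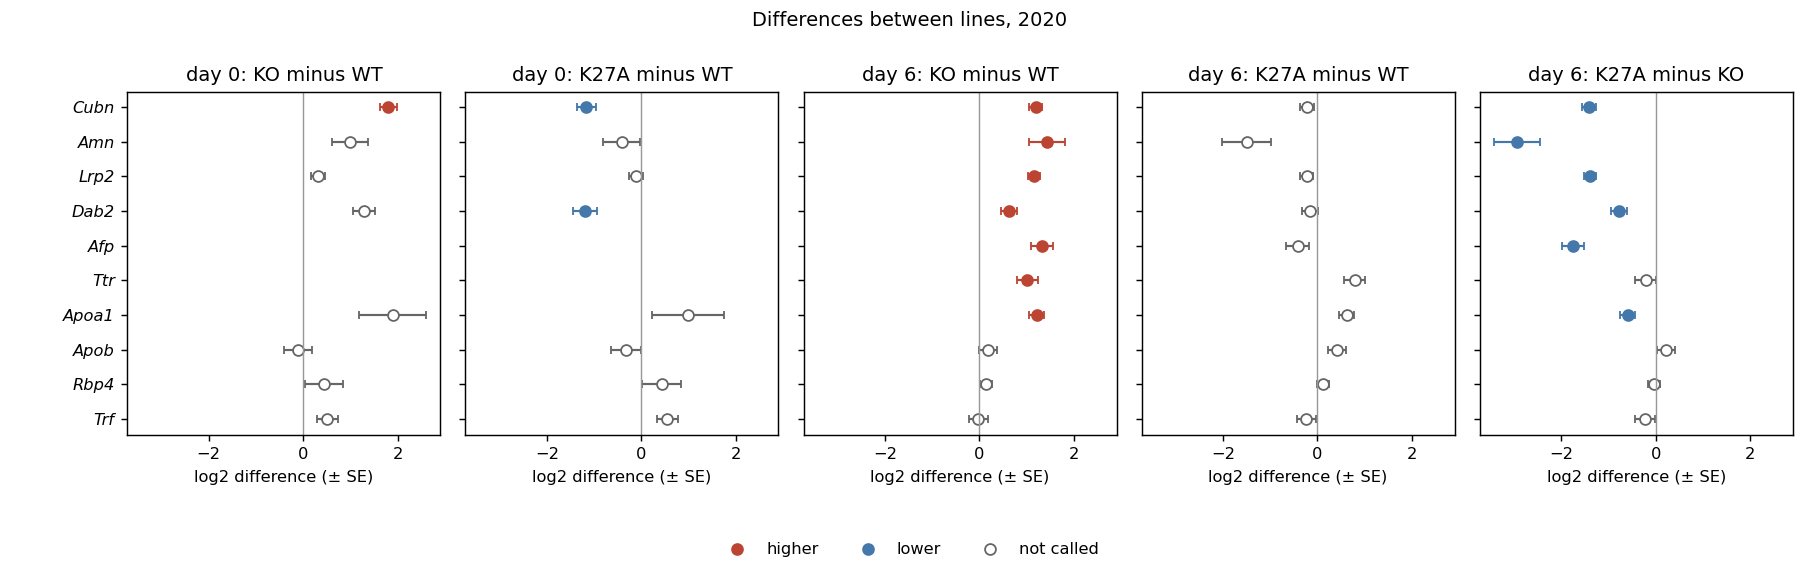
Log2 differences between lines for the 10 genes at day 0 and day 6 of 2020 (WT, wild type; KO, H3.3A knockout; K27A, H3.3K27A), with the SE as bars and filled points for an adjusted p under 0.05. Genes at or under 3 counts in both groups are left out; at day 6 Cubn lies at 1.19 for KO minus WT, -0.22 for K27A minus WT and -1.41 for K27A minus KO.

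Whether the change from day 0 to day 6 itself differed between lines was tested with an interaction term. Between K27A and the knockout it differed at 3 members: the rise was larger in K27A by 1.56 ± 0.21 on the log2 scale for Cubn (adjusted p = 0.00473) and by 1.69 ± 0.26 for Dab2 (adjusted p = 0.00821), and for Lrp2 the term was -0.97 ± 0.18 (adjusted p = 0.0166). Among all genes 3.23% were called higher and 2.16% lower. Cubn rose 18.9-fold in K27A and 6.4-fold in the knockout, from day 0 levels 7.83-fold apart to day 6 levels 2.65-fold apart. The Lrp2 call was lost without either day 0 library of either line (adjusted p = 0.0597 to 0.085) or the K27A day 6 library of replicate 1 (0.1). The Dab2 call was lost without the knockout day 0 library of replicate 2 (adjusted p = 0.0514) or the K27A day 0 library of replicate 1 (0.0653). Between the knockout and wild type no member was called (0.0407% of genes in each direction). At an unadjusted p under 0.05, Lrp2 was higher and Cubn and Dab2 lower, and DESeq2 called Lrp2 higher. Without the knockout day 6 library of replicate 1, all 3 were called (0.65 for Lrp2, adjusted p = 0.0191; -0.81 for Cubn, 0.0276; -1.02 for Dab2, 0.00164), and without that of replicate 2 Lrp2 alone (1.02, adjusted p = 0.000168). Between K27A and wild type none was called either (0.549% higher, 0.217% lower), with Cubn (0.95 ± 0.24, adjusted p = 0.136) and Dab2 (1.03 ± 0.30, adjusted p = 0.191) called higher by DESeq2 and without either knockout day 6 library. At an unadjusted p under 0.05 these 2 were higher and Trf was lower.

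**Figure D4:**
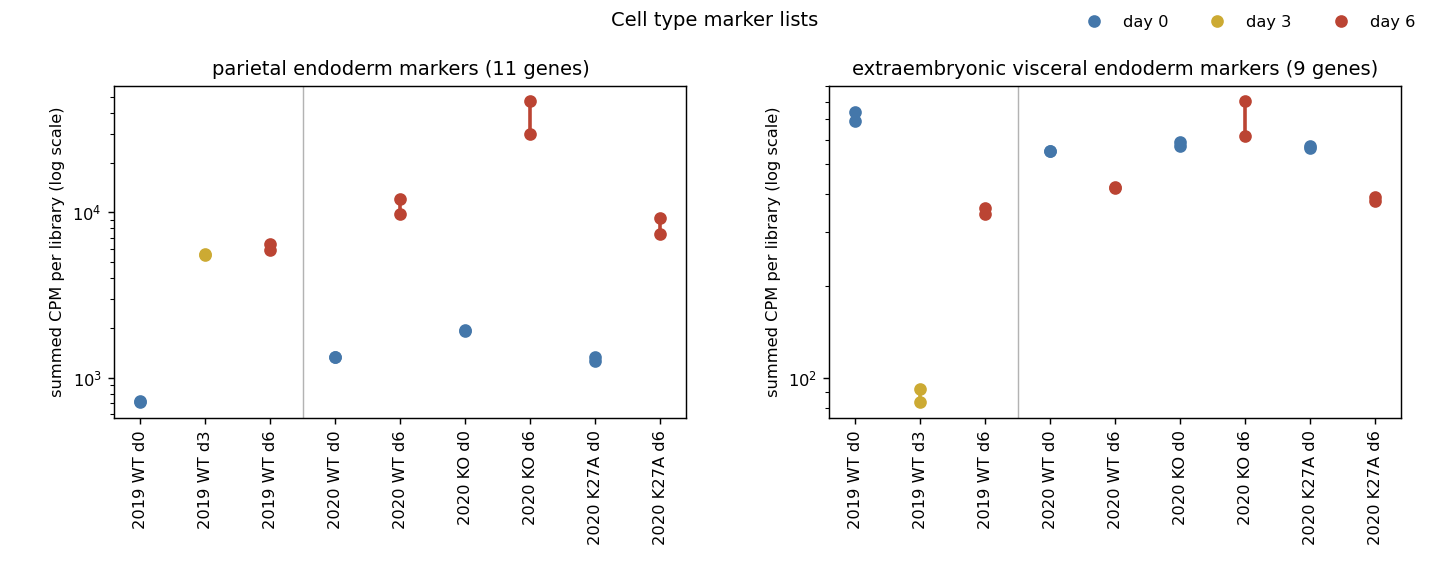
Summed CPM per library, on a log scale, of 11 parietal endoderm markers and 9 extraembryonic visceral endoderm markers by group, each point a library, with a line joining duplicates and a grey line between the years. The day 6 knockout libraries lie highest in parietal endoderm markers, at 29900 to 47300 CPM, and also lie farthest from each other.

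Chromatin at the members' starts was read from the authors' filtered peaks in wild-type cells, counting a gene when a peak lay within 1 kb of a start in both duplicates. H3K27me3 covered the starts of Amn, Lrp2 and Rbp4 at day 0, 3 of 10 members beside 18.6% of 23238 genes, and that of Amn alone at day 6 (11.5%). H3.3K27me3 covered Amn and Rbp4 at day 0 (11.6%) and 0 members at day 6 (2.75%). Each of these genes has a start window with 15 or more CG dinucleotides, a class in which 23.8% of 8712 genes had an H3K27me3 peak at day 0, against 11.9% of 8689 genes with fewer. The boundary of 15 was chosen after the values were seen. Dab2, whose downstream start also has that many, had an H3K27me3 peak at day 0 in replicate 2 only (the authors' fold enrichment 2.92, the peak 8.58 kb long). The starts of Cubn, Afp, Apoa1 and Apob, with fewer, had none in any of the 8 libraries of the 2 K27me3 targets. Rbp4 rose 145-fold and Amn fell 4.64-fold over these 6 days in wild-type cells of 2019, although both carried the marks at day 0.

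H3.3 itself gave no member a peak in both duplicates at day 0, where 38.1% of genes had one, and gave Lrp2 and Dab2 one at day 6 (25.7%). The target labelled H3 gave 0 members at day 0 and at day 6 (5.56% and 2.19%). Peaks were broad and duplicates differed: H3.3 peaks over Lrp2 at day 6 were 23.2 and 69.1 kb long. A peak in either duplicate in place of both raised the members at day 0 to 5 for H3K27me3 (30.2% of all genes), 5 for H3.3K27me3 (24.5%) and 5 for H3.3 (55.1%), Ttr among them each time. A missing peak may mark a limit of the calls or an absence of the mark, and these calls cannot tell the 2 apart.

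The authors' differential regions put a size on the changes at 6 of the 10 starts, and every value here is from the authors' deposited tables, as log2 of day 6 minus day 0. H3K27me3 signal fell by 0.72 at Dab2 (FDR = 7.35e-06), by 0.50 at Rbp4 (FDR = 8.62e-06) and by 0.47 at Amn (FDR = 2.86e-05). At Lrp2 it was lower by -0.27 with an FDR of 0.0762. The Dab2 region, chr15:6382426-6393498 (mm10), held 394 and 405 at day 0 and 269 and 216 at day 6 in the authors' scaled signal. Lower signal at day 6 was common among all 10491 H3K27me3 regions: 30.5% were higher at day 0 and 2.57% at day 6 at an FDR under 0.05. H3.3 went up at the genes for the receptor and adaptor that rose: by 0.67 at Dab2 (FDR = 2.01e-21) and by 0.47 at the start of Cubn (FDR = 4.28e-13). All 5 H3.3 regions over Cubn were higher at day 6, by 0.23 to 0.55. The H3.3 regions over the starts of Dab2, Cubn and Lrp2 were 67.3, 85.6 and 86.1 kb long, so their values are not local to the start. Among all 14812 H3.3 regions, 13.9% were higher at day 6 and 36.4% at day 0. H3.3 fell at the starts of Amn (-0.48, FDR = 0.00251), Lrp2 (-0.19, FDR = 0.00214) and Ttr (-0.38, FDR = 1.08e-16, in a region of 243 kb), and in the body of Trf (-0.34, FDR = 3.6e-05), while Rbp4 gave 0.11 (FDR = 0.493). H3 over Cubn and Dab2 differed by 0.07 to 0.10, with FDR of 0.522 to 0.643.

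**Figure D5:**
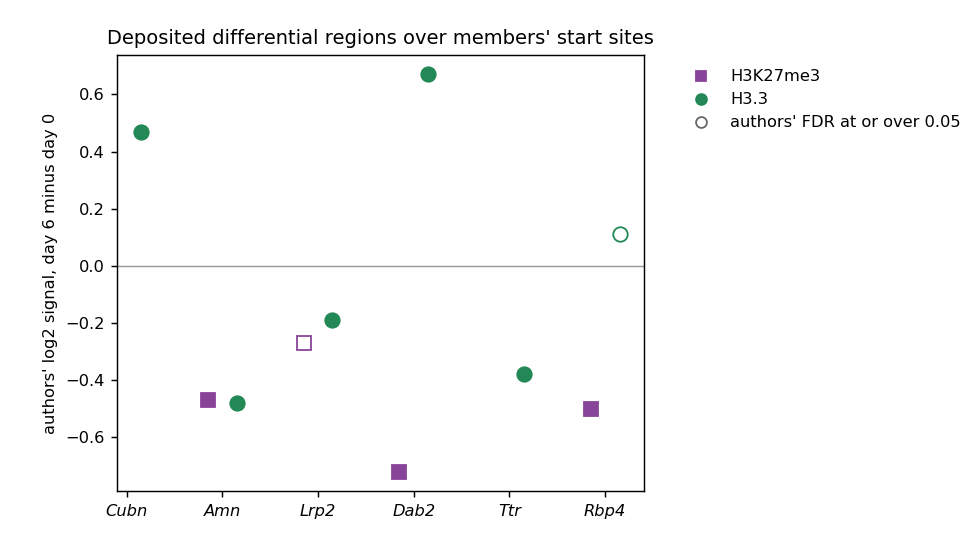
The authors' log2 difference in signal, day 6 minus day 0, in deposited regions over the start sites of 6 members, for H3K27me3 (squares) and H3.3 (circles) in wild-type cells; open symbols have an FDR of 0.05 or more. H3.3 lies above 0 at Cubn and Dab2, and H3K27me3 lies below 0 at Amn, Lrp2, Dab2 and Rbp4.

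Genes around the members were counted from lists chosen with earlier results known. Of 14 factors of primitive endoderm, the tissue from which visceral and parietal endoderm arise, 11 were higher and 2 lower at day 6 in 2019, with a median log2 change of 6.01. Those called with the largest changes were Nr2f2 (log2 9.95 ± 0.52, adjusted p = 3.15e-13), Sox17 (8.53 ± 0.65, adjusted p = 5.12e-12) and Pdgfra (8.16 ± 0.30, adjusted p = 2.98e-13). At day 6 between K27A and the knockout 6 of them were lower and 2 higher (9.64% and 9.03% of all genes), among them Gata6 (-1.52 ± 0.22, adjusted p = 0.00203) and Gata4 (-1.40 ± 0.27, adjusted p = 0.00734). The lysosomal proteases and membrane proteins that digest what is taken up were counted in the same comparisons: 10 of 10 were higher at day 3 and 9 at day 6 in 2019 (37.6% and 41.4% of all genes tested), 8 were higher in the knockout than in wild type at day 6 (6.98%), and 8 were lower in K27A than in the knockout (9.64%). Ctsh, a cathepsin, rose by 5.56 ± 0.50 in 2019 (adjusted p = 1.74e-09) and was lower by -1.40 ± 0.10 in K27A than in the knockout (adjusted p = 0.000107). With only the 4 day 6 libraries of wild type and the knockout in the fit, 0 genes were called higher over all genes. No list could therefore hold a gene called higher in that fit.

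Of 15 other uptake receptors tested, 11 were higher and 1 lower at day 6 in 2019, and Lrpap1, the chaperone of megalin, was lower by -1.28 ± 0.20 in K27A than in the knockout at day 6 (adjusted p = 0.00289). Of 17 genes of the clathrin pathway, 9 were higher and 3 lower, with a median of 0.29. Between the knockout and wild type at day 6, 0 of them differed (6.98% of all genes were higher and 4.42% lower). Clcn5, the endosomal chloride transporter that proximal tubule cells need for uptake through these receptors, rose by 2.47 ± 0.12 (adjusted p = 6.48e-10). Of 21 other plasma protein genes tested, 17 were higher and 3 lower at day 6 in 2019. Apoa4 was at least 32.2-fold higher (adjusted p = 1.46e-06) and Fgb, a fibrinogen chain, reached 14.5 CPM. Retinol handling genes, which meet the same ligand as Rbp4, gave 7 higher and 2 lower of 9. Stra6, the cell-surface receptor for Rbp4, rose by 8.24 ± 0.41 (adjusted p = 1.34e-12). None of these genes differed between K27A and wild type at day 6, where 1.13% of all genes were higher and 0.908% lower. Rdh10 was lower in K27A than in the knockout at day 6 (-1.09 ± 0.16, adjusted p = 0.00188, with 9.64% of all genes lower). Lipoprotein assembly genes, on which Apob depends, gave 3 higher and 5 lower of 10 at day 6 in 2019. Iron genes, which serve the same cargo as Trf, gave 3 higher and 3 lower of 8. Across all 13593 genes, 41.4% were higher and 36.6% lower in that comparison.

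Across the 9 group means, Cubn and Dab2 ran together (Pearson's r = 0.99 over log2(CPM + 1)), as did Afp, Ttr, Apoa1, Apob and Rbp4, whose pairs had r of 0.92 to 0.99. The sets were not separate, with r of 0.74 to 0.87 between them. Trf ran against the 5 secreted protein genes, with r of -0.93 to -0.78. Lrp2 had r of 0.81 with Amn and 0.76 with Trf, and Amn had 0.60 with Trf. These are descriptions over 9 groups that share their libraries and their day 0 to day 6 contrast. The genes most like the members' mean profile, of 13316 compared, were Txndc5 (r = 0.989), Brd9 (0.986), Txndc12 (0.983), Anxa5 (0.983) and Col4a2 (0.981). The members' own r with that mean ran from 0.964 for Cubn and 0.958 for Dab2 down to -0.223 for Lrp2, -0.269 for Amn and -0.593 for Trf.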

How the data were processed

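RNA and chromatin immunoprecipitation libraries were analysed from the files the authors deposited. Reads were aligned to mm10 with STAR 2.5.2a and counted with HTSeq, per the submitters' processing notes, and the deposited values are raw gene counts from a directional poly(A) kit, whose strand setting in counting is not given in the sources used here. No-feature and ambiguous rows, 25.7 to 43.3% and 7.4 to 9.54% in 2019 and 11.3 to 16.8% and 10.7 to 11.9% in 2020, were left out. Peaks were called with MACS2 2.2.6 with a p cutoff of 0.01 and no control, per the file headers, and the deposited peaks carry its fold enrichment. The pooled ChIP sample was sequenced in 3 runs, which the deposited peak files join. The authors' deposited tables of differential regions and genes give log2 differences, p-values or FDR and region signal, and were used as they stand.

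Libraries of 2019 (6) and 2020 (11) were fitted apart with edgeR 4.0.16 in R 4.3.3: filterByExpr, TMM scaling, quasi-likelihood F-tests, Benjamini-Hochberg adjustment over all genes tested, threshold 0.05. All groups of a year shared 1 estimate of the spread. SE are Wald errors of the coefficients. CPM are TMM-scaled, and CPM per kb used RefSeq exon lengths. A group at 0 was set at a floor of 3 counts over the group, and groups of 1 to 3 counts got a 95% exact counting interval, covering counting error only. Antisense or overlapping genes lie at Cubn, Amn, Dab2 and Ttr, none counted in the files. Depth, in gene counts per library, limits members with few counts in a group, such as Afp, Ttr and Apoa1 at day 0 and Amn at day 6. The tests were checked on simulated counts. Alternatives were DESeq2 1.42.0, RLE scaling, other filters, a replicate block, only the groups compared, all 17 libraries, and leaving out each library. Beyond the members, genes named are the 3 with the largest called changes of a list, or some of these, the 5 most like the members, marker genes, and H3f3a. Members and lists were chosen with earlier results of these data known.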

Additional observations from a re-analysis of the deposited data

Results flagged for a closer look

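The change from day 0 to day 6 differed between the H3.3K27A line and the H3.3A knockout at 3 members by an interaction term (edgeR, Benjamini-Hochberg over all genes tested). The log2 term was 1.56 for Cubn (adjusted p = 0.00473), 1.69 for Dab2 (adjusted p = 0.00821) and -0.97 for Lrp2 (adjusted p = 0.0166). For Cubn and Dab2 the lines differed more at day 0 than at day 6. For Lrp2 the K27A line fell 2.31-fold, and the knockout was not called.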

How the results depend on the processing

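Of 500 recomputed counts of members 447 stayed within 1.5 times the reported count, and of 2488 recomputed member values 2368 kept their direction and side of the threshold, 70 lost a call, 49 gained one and 1 reversed: Rbp4 in K27A against the knockout at day 6, at 0.22 without the knockout library of replicate 1 and -0.23 without that of replicate 2. The causes were not tested. Another 18 values changed sign with no call on either side. With only the groups compared in the fit, members called higher in the knockout than in wild type at day 6 went from 7 to 0 and members lower in K27A than in the knockout from 6 to 2. At day 0 that fit gave 5 higher in the knockout, 1 higher in K27A and 4 lower in K27A than in the knockout, in place of 1, 0 and 2. At day 6 it gave 2 higher in K27A than in wild type, and 2 in the interaction of K27A with wild type, in place of 0. DESeq2, no filter and all 17 libraries each gave 2 higher in the knockout at day 0 and 1 in the interaction of the knockout with wild type. DESeq2 and no filter gave 2 higher in the interaction of K27A with wild type, and no filter gave 1 higher in K27A at day 6. RLE scaling gave 1 lower at day 3 in 2019 and 1 lower in K27A at day 0.

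Replicate numbers did not pair the samples: deviations correlated at -0.02 to 0.09 over 3 pairs of groups in 2019 and -0.36 to 0.14 over 10 in 2020. With the replicate block, members higher in the knockout at day 6 went from 7 to 4 and members lower in K27A than in wild type at day 0 from 2 to 0.

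Leaving out each library gave 7 to 8 members higher at day 3, 2 to 3 lower at day 6 in the knockout, 0 to 2 higher in the knockout and 0 to 2 lower in K27A than in wild type at day 0, and 2 to 4 lower in K27A than in the knockout. At day 6 it gave 2 to 8 higher in the knockout, 0 to 2 higher in K27A than in wild type, and 4 to 8 lower and 0 to 1 higher in K27A than in the knockout. Interactions gave 0 to 1 higher and 0 to 2 lower (knockout and wild type), 0 to 2 higher (K27A and wild type) and 1 to 2 higher and 0 to 1 lower (K27A and knockout). Without the single wild-type day 0 library of 2020 no value exists for comparisons that use it.

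For peaks, either duplicate in place of both gave 5 members for H3.3K27me3 at day 0 (from 2), 5 and 4 for H3K27me3 at day 0 and day 6 (from 3 and 1), 5 and 4 for H3.3 (from 0 and 2) and 2 for H3 at day 0 (from 0). The stricter peaks gave 0, 0, 0 and, for H3.3 at day 6, 1. A 5 kb window gave 2 for H3.3 at day 0. Single duplicates gave 3 to 4 for H3.3K27me3 at day 0, 4 for H3K27me3 at day 0 and 1 to 4 at day 6, 2 to 3 and 2 to 4 for H3.3, and 0 to 2 for H3 at day 0.

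Counts over all genes are given here for the alternatives other than leaving out a library. Among these they moved by over 1.5 times only in the comparisons between lines of 2020. Knockout against wild type at day 6 gave 1030 higher and 653 lower, 623 and 378 with the replicate block, 0 and 3 with only the groups compared, and 1027 lower with all 17 libraries. K27A against the knockout gave 1333 and 1423, and 134 and 74 with only the groups compared. K27A against wild type at day 6 gave 167 and 134, from 80 and 65 (block) to 1087 and 1101 (only the groups compared). At day 0 the same 2 settings moved 4 and 14 in the knockout to 1 and 4, or 198 and 166, and 84 and 172 in K27A to 28 and 89, or 731 and 659. Between the edited lines at day 0 they moved 68 and 119 to 23 and 62, or 518 and 501. The interaction of K27A with the knockout went from 477 and 319 to 265 and 165 with only the groups compared and to 745 and 536 with all 17 libraries. The interaction of the knockout with wild type gave 6 and 6, ranging over these alternatives from 0 to 140 and 0 to 77. That of K27A with wild type gave 81 and 32, ranging from 28 to 506 and 8 to 376.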
